A study of Mus musculus with 4 samples.

Results

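Messenger RNA of 9 transcription factor genes was followed in brain endothelial cells of mouse embryos: the 3 SoxF genes Sox7, Sox17 and Sox18, and 6 genes of the Ets family, Erg, Fli1, Ets1, Ets2, Elk3 and Etv6. They were taken by gene name from the count tables of both stages, which listed all 9 of them among 20194 genes named in either table and 16181 named in both. The study is RNA sequencing of brain endothelial cells with and without the mitochondrial carrier gene Ucp2 in the endothelium, in C57BL/6 mice. There was 1 library for each of 4 groups: knockout (UCP2f/f;Tie2-cre) at embryonic day 15 (E15), wild type (WT) at E15, knockout at E18 and WT at E18. The Tie2 promoter that drives Cre is active in endothelium and in most blood cells, so a knockout embryo can lose Ucp2 in both. Whether WT embryos carried the floxed allele or Cre, how the cells were isolated and how many embryos gave a library are not given in the sources used here.

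SoxF proteins bind DNA through an HMG box and act together, with much overlap, in arterial identity, lymphatic development and vessel integrity. Ets proteins bind a core GGAA through the Ets domain, and nearly every endothelial enhancer carries such sites. Among them Erg and Fli1 are general activators that keep endothelial cells in their state, Ets1 and Ets2 are activators that respond to Ras and MAP kinase signalling, Elk3 is a ternary complex factor that mostly represses until it is phosphorylated, and Etv6 is a repressor that is needed for yolk sac vessels in the mouse.

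Members of each family resemble each other most in the part that encodes the DNA-binding domain, so the stretches below show how far reads could be shared between them. The longest identical run between any pair of genes of the same family was 29 bases, between Sox17 (chr1:4492611-4492639, minus strand, GRCm38) and Sox18 (chr2:181670939-181670967, minus strand), in the coding part of both. The longest between a pair of Ets genes was 22 bases, between Erg (chr16:95361164-95361185, minus strand) and Fli1 (chr9:32424143-32424164, minus strand), again coding in both.
Sox17 and Sox18: gagaagcggcccttcgtggaagaggccga
Erg and Fli1: ggaagagcaagcccaacatgaa
Over the other pairs within a family the longest run was 22 bases or shorter. As the sources used here give no read length, whether any read fell inside such a run was not tested.

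Etv6 and Elk3 had the widest ranges over the 4 libraries, so their 250 bases before the start are printed from RefSeq (GRCm38.p6), in which 4 of the 9 genes had an entry. The capitals mark the Ets core GGAA, or TTCC where it lies on the other strand. The Etv6 stretch is chr6:134035450-134035699 on the plus strand, and the Elk3 stretch is chr10:93311160-93311409 on the minus strand, read in the direction of the gene.
Etv6: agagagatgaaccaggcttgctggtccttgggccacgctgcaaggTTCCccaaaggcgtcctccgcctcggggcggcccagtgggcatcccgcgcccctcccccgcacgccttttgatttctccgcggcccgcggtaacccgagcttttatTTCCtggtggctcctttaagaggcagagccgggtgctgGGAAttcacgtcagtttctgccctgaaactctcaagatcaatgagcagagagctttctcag
Elk3: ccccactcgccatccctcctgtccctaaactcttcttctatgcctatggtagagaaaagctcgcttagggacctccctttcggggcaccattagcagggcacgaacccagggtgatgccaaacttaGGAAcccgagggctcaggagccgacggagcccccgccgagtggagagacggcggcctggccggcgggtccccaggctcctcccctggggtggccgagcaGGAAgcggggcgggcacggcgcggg
Etv6 held 3 matches to the Ets core and Elk3 held 2, against a median of 3 over 32851 promoters of this length, 93.4% of which held at least 1. Neither held the Sox core ACAAT or its complement ATTGT, which 27.7% of the promoters held. These are matches of letters and not measured binding sites.

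The library totals lay between 15542930 and 21992660 reads. Levels are given in CPM, the count of a gene scaled to its library's total, and differences as log2 ratios of CPM + 1, with a 95% Clopper-Pearson interval on the reads that covers counting error only. With 1 library per group no ratio has a replicate check. Ucp2 itself had 2666 reads in the knockout and 4285 in WT at E15, and 3296 in the knockout and 6696 in WT at E18, so it was lower in both knockout libraries and not absent from them. The 12 endothelial markers all had reads in every library and summed to between 16550 and 19140 CPM. In bulk RNA fewer cells of a type and less RNA per cell cannot be told apart. Xist was read 2109 times in the knockout and 2549 times in WT at E15, and 547 times in the knockout and 0 times in WT at E18, while the Y-linked Ddx3y had 0 reads in the knockout and 5826 in WT at E18. In WT, Xist thus went from 2549 reads at E15 to 0 at E18, and Ddx3y was not listed at E15. Sex and genotype therefore cannot be told apart at E18, nor can sex and stage in WT.

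By their median over the 4 libraries, the 9 genes other than Etv6 were the strongest of their families. Per kilobase of exon, Sox18 led with a median of 317 CPM per kb over the 4 libraries (lowest 287.5, highest 331), followed by Sox7 with 254 (lowest 245.5, highest 303) and Ets1 with 240.3 (lowest 224.5, highest 246). The range of Sox18 overlapped that of Sox7, and the range of Sox7 overlapped that of Ets1, so the order at the top is not settled by these libraries. Every later step of the order had ranges that did not overlap. Fli1 had a median of 161.6 CPM per kb (lowest 149.8, highest 167.7) and Sox17 had 133 (lowest 120.5, highest 143). Elk3 followed with 64.8 (lowest 57.5, highest 73.4) and Ets2 with 38.1 (lowest 33.9, highest 40.1). Erg, the Ets factor best known as an endothelial marker, had 19.9 (lowest 17.7, highest 22.2). Etv6 was the lowest with 10.2 CPM per kb (lowest 6.64, highest 13.0).

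Together the 3 SoxF genes held 92.8% of the CPM per kb summed over 19 Sox genes in the knockout and 92.3% in WT at E15, and 93.3% in the knockout and 93.9% in WT at E18. The strongest other Sox gene was Sox9, a factor of glia and progenitors, with a median of 25.2 CPM per kb, then Sox11, a factor of young neurons, with 12.4, and Sox13 with 9.11. The 6 Ets genes held 87.4% of the sum over 27 Ets genes in the knockout and 88.4% in WT at E15, and 88.0% in the knockout and 88.5% in WT at E18. Gabpa, the Ets subunit of a factor for housekeeping and mitochondrial genes, had a median of 17.96 CPM per kb, Elf2 had 14.8 and Etv5 had 10.6. By the median these stood above Etv6, which was ninth of its family. The ranges of Etv5 (6.43 to 10.87) and Etv6 (6.64 to 13.0) overlapped, and Etv6 stood above Etv5 in both E15 libraries, so their order is not settled.

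**Figure D1:**
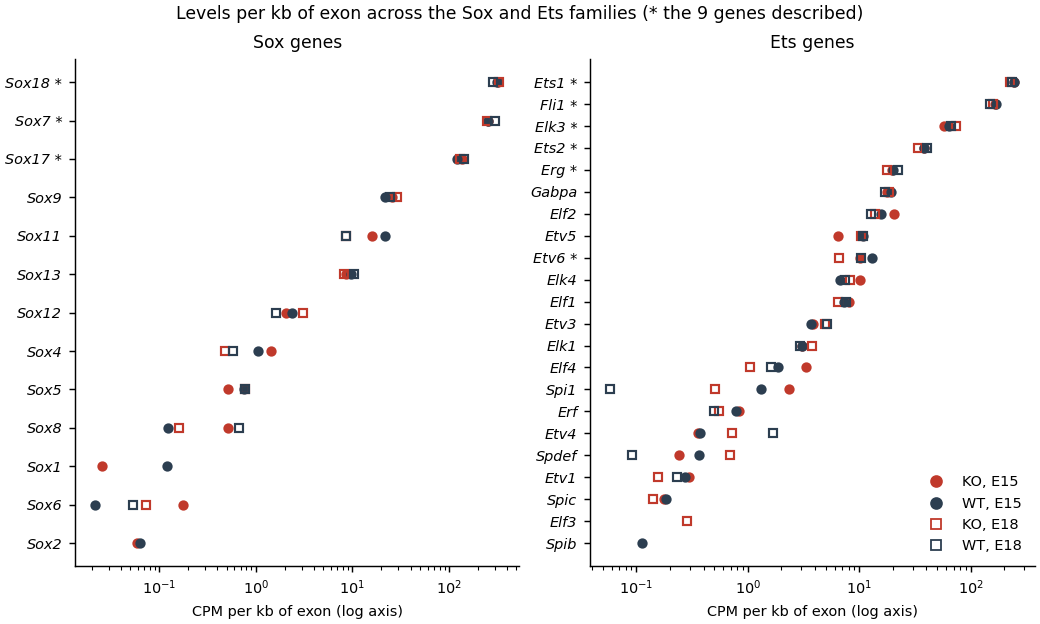
Level per kilobase of exon (CPM per kb, log axis) of each Sox gene (left) and Ets gene (right) that had reads, with 1 point per library: filled circles for E15, open squares for E18, red for the knockout and dark blue for WT. An asterisk marks the 9 genes described; the 3 SoxF genes stand above every other Sox gene in each library, and by the median 5 of the 6 Ets genes head their family, though Elf2 (20.4) stood above Erg (19.8) in the E15 knockout library and Gabpa (18.4) above Erg (17.7) in the E18 knockout library.

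Within the SoxF group the shares of Sox18 and Sox7 varied most. Sox18 made up 45.1% of the group's CPM per kb in the knockout and 45.6% in WT at E15, and 46.9% in the knockout and 39.2% in WT at E18. Sox7 made up 35.7% in the knockout and 36.9% in WT at E15, and 34.8% in the knockout and 41.3% in WT at E18. The E18 WT library was the only library in which Sox7 held a larger share than Sox18. Ets1 held between 43.6% and 45.8% of the 6 Ets genes' sum in every library, and Fli1 between 28.6% and 30.8%.

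At E15 the knockout and WT libraries were close for most of these factors. None of the 9 genes was past 2-fold, against 6.87% of 12633 genes tested. The members' median log2 ratio was -0.01 and that of all genes was -0.01. The median absolute log2 ratio was 0.02 over the 9 genes and 0.25 over all genes, or 0.23 over genes with at least 5 CPM.

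Among the SoxF genes at E15, Sox7 had 836 CPM in the knockout and 840.0 CPM in WT, a log2 ratio of -0.01 (95% interval -0.04 to 0.03). Sox18, whose loss or mutation disturbs lymphatic vessels in mice, had 519 CPM in the knockout and 509 CPM in WT, a ratio of 0.03 (-0.02 to 0.07). Neither interval excluded 0. Sox17, the SoxF gene most tied to arteries, had 653 CPM in the knockout and 575 CPM in WT, a ratio of 0.18 (0.14 to 0.22), and was the only 1 of the 9 that was higher in the knockout beyond counting error at this stage.

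Among the Ets genes at E15, Ets1 had 2085 CPM in the knockout and 2080.5 CPM in WT, the highest reads of the 9 and a log2 ratio of 0.00 (-0.02 to 0.03). Fli1 had 575 CPM in the knockout and 584 CPM in WT, Erg had 68.7 CPM in the knockout and 69.2 CPM in WT, and Ets2 had 222 CPM in the knockout and 218 CPM in WT. The intervals of these 4 genes all held 0, that of Erg being the widest at -0.13 to 0.11. Elk3 had 262 CPM in the knockout and 289 CPM in WT, a ratio of -0.14 (-0.20 to -0.08). Etv6 had 61.0 CPM in the knockout and 77.9 CPM in WT, a ratio of -0.35 (-0.48 to -0.23), the largest of the 9. In all, the interval excluded 0 for 3 of the 9 genes at E15, against 59.4% of all genes. Of the 9, 1 was higher (28.9% of all genes) and 2 were lower (30.5%), so the members' share was below that of genes at large.

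Markers of mural cells, macrophages and microglia, neurons and fibroblasts were also lower in the knockout at E15, where Elk3 and Etv6 were. The 12 mural markers summed to 4936 CPM in the knockout and 7387 CPM in WT, 9 of 10 tested having an interval below 0. Macrophage and microglia markers summed to 328 CPM in the knockout and 693 CPM in WT, neuron markers to 61.9 CPM in the knockout and 122.9 CPM in WT, and fibroblast markers to 147 CPM in the knockout and 309 CPM in WT. Of 12 macrophage and microglia markers tested, 9 had an interval below 0 and 1 above it, as did 1 of the 10 mural markers tested. Neutrophil and mast cell markers ran the other way, with 17.4 CPM in the knockout and 1.48 CPM in WT. Radial glia markers summed to 407 CPM in the knockout and 278 CPM in WT, of which Nes alone gave 386.5 and 252.1 CPM. Of 5 radial glia markers tested, 1 had an interval above 0 and 2 below it. Erythroid markers summed to 513 CPM in the knockout and 404 CPM in WT, of which Hba-a1 alone gave 330.4 and 212.9 CPM. Of 7 erythroid markers tested, 2 had an interval above 0 and 2 below it, with a median log2 ratio of 0.0049. The part of these cells in the ratios of Elk3 and Etv6 was not tested.

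**Figure D2:**
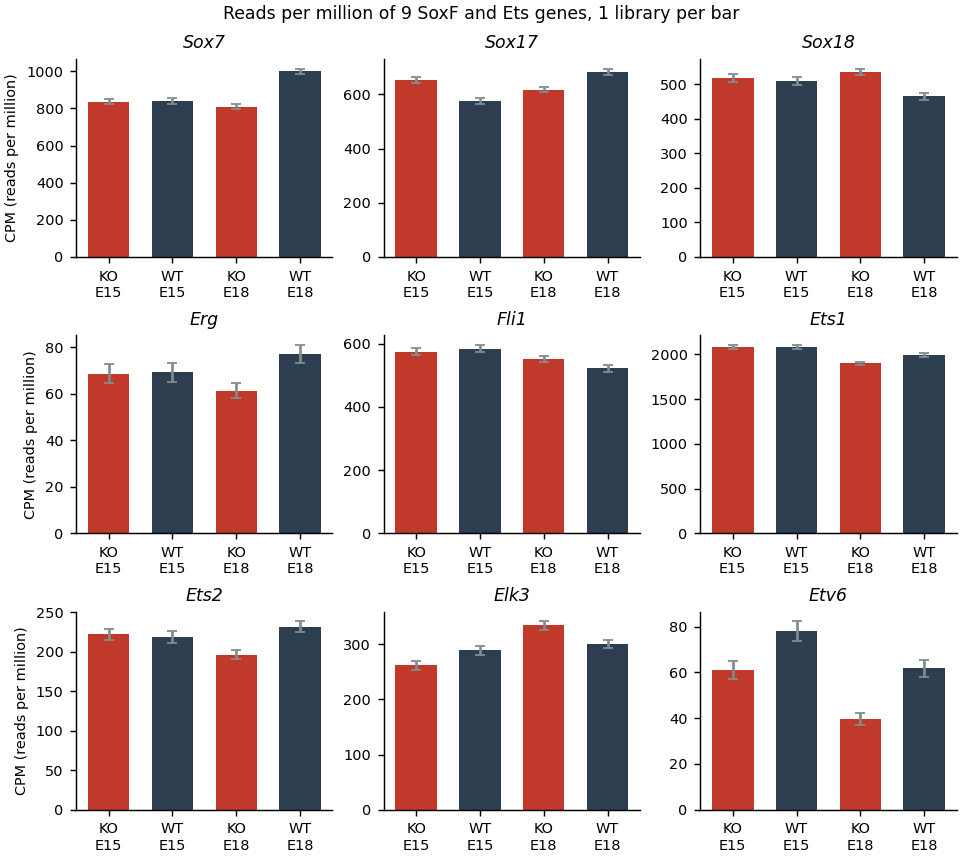
CPM of each of the 9 genes in the 4 libraries, with 1 bar per library, red for the knockout (KO) and dark blue for WT, and grey bars for an approximate 95% counting error of the reads. At E15 the KO and WT bars nearly match for most genes, and Etv6 is lower in KO at both stages, with 61.0 against 77.9 CPM at E15 and 39.7 against 61.7 CPM at E18.

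At E18 the knockout and WT libraries differed more for these genes, though none was past 2-fold, against 6.80% of 12349 genes tested. Sox7, Sox17, Erg, Ets1, Ets2 and Etv6 were lower in the knockout and Sox18, Fli1 and Elk3 were higher. The interval excluded 0 for all 9 genes, against 64.4% of all genes, 3 being higher (32.5% of all genes) and 6 lower (31.9%). The members' median log2 ratio was -0.15 and that of all genes 0.00, while the median absolute ratio was 0.20 over the 9 genes and 0.26 over all genes.

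The 3 SoxF genes went different ways at E18. Sox7 had 810 CPM in the knockout and 1000.5 CPM in WT, a log2 ratio of -0.30 (-0.33 to -0.28). Sox17 had 617 CPM in the knockout and 683.5 CPM in WT, a ratio of -0.15 (-0.18 to -0.11). Sox18 had 537 CPM in the knockout and 466 CPM in WT, a ratio of 0.20 (0.16 to 0.24). For Sox7 the WT library at E18 was the highest of the 4, and for Sox18 it was the lowest.

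Among the Ets genes at E18, Etv6 again had the largest difference, with 39.7 CPM in the knockout and 61.7 CPM in WT, a log2 ratio of -0.62 (-0.76 to -0.51). Erg had 61.3 CPM in the knockout and 77.1 CPM in WT, a ratio of -0.32 (-0.44 to -0.22), and Ets2 had 196 CPM in the knockout and 232 CPM in WT, a ratio of -0.24 (-0.30 to -0.18). Both genes were nearly level between the libraries at E15. Ets1 had 1903 CPM in the knockout and 1993 CPM in WT, a ratio of -0.07 (-0.09 to -0.05). Elk3 had 334 CPM in the knockout and 301 CPM in WT, a ratio of 0.15 (0.10 to 0.20). Fli1 had 552 CPM in the knockout and 522 CPM in WT, a ratio of 0.08 (0.04 to 0.12).

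Other measures moved with genotype at E18 too. The 10 dissociation stress genes summed to 15160 CPM in the knockout and 24070 CPM in WT, 9 of 10 having an interval below 0, and the 12 mural cell markers summed to 11720 CPM in the knockout and 9396 CPM in WT. Macrophage and microglia markers summed to 74.2 CPM in the knockout and 36.0 CPM in WT over 13 genes, of which 1 was at 0 in WT and 1 was not listed. The part of these, and of sex, in the ratios of the 9 genes was not tested. The 12 endothelial markers had a median log2 ratio of -0.04, 5 having an interval above 0 and 6 below.

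**Figure D3:**
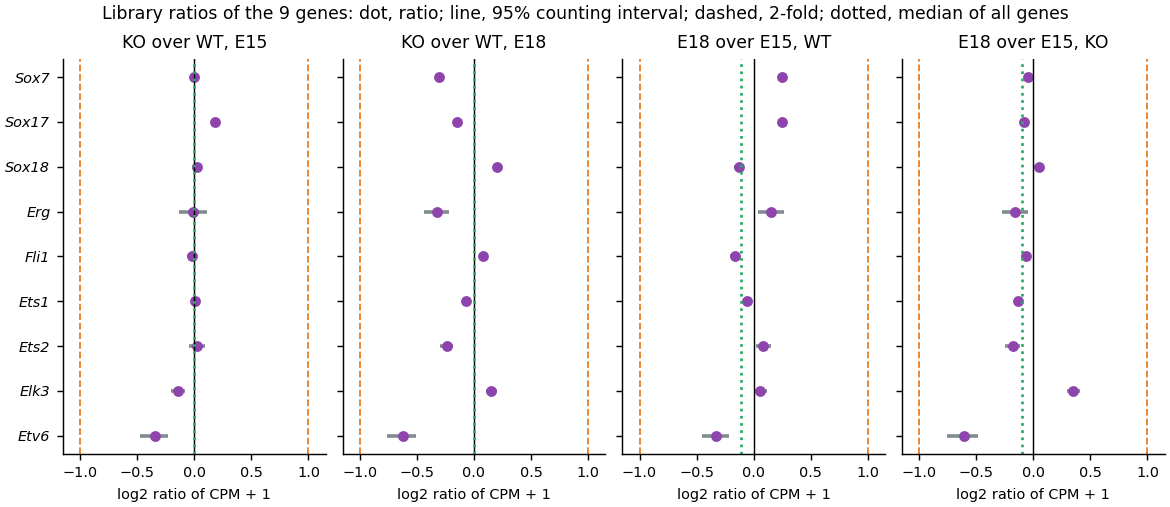
Log2 ratio of CPM + 1 of the 9 genes in the 4 comparisons of libraries (dots), with the 95% counting interval (grey lines), 2-fold in either direction (dashed lines) and the median of all genes tested (dotted line). No dot reaches a dashed line, and Etv6 lies left of 0 in all 4 panels, from -0.33 to -0.62.

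The authors' deposited table gives a fold of knockout over WT for each gene and stage, and its column for significance reads "no" for all 9 genes at both stages. For Etv6 the authors' deposited table gives a fold of 0.783 at E15 and 0.643 at E18, and for Sox7 it gives 0.995 at E15 and 0.810 at E18. Its p-values, such as 8.58e-92 for Sox7 at E18 in the authors' deposited table, come from 1 library on each side and so compare those libraries and not the genotypes.

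With stage as the comparison, WT libraries had more Sox7 and Sox17 and less Etv6 at E18 than at E15. None of the 9 genes was past 2-fold, against 10.7% of 12515 genes tested (3.08% higher and 7.58% lower). The interval excluded 0 for all 9, against 67.5% of all genes, 5 being higher (24.1% of all genes) and 4 lower (43.4%) at E18. Sox7 had a log2 ratio of 0.25 (0.22 to 0.28) and Sox17 a ratio of 0.25 (0.21 to 0.29), while all genes had a median of -0.11. Sox18 had a ratio of -0.13 (-0.17 to -0.09), near that median. Among the Ets genes, Erg stood at 0.15 (0.04 to 0.27), Ets2 at 0.09 (0.02 to 0.15) and Elk3 at 0.06 (0.00 to 0.11). Ets1 stood at -0.06 (-0.08 to -0.04), Fli1 at -0.16 (-0.20 to -0.12) and Etv6 at -0.33 (-0.45 to -0.22). The ratio of Ets1 was above 0 with TMM factors (0.06) and with DESeq2 size factors (0.05), and that of Elk3 was below 0 when scaled to the endothelial markers (-0.02).

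In the knockout libraries the order differed: Elk3 was higher at E18, Etv6 was lower, and the SoxF genes were nearly level. None of the 9 genes was past 2-fold, against 15.3% of 12465 genes tested (4.34% higher and 10.9% lower). The interval excluded 0 for all 9, against 72.6% of all genes, 2 being higher (29.0% of all genes) and 7 lower (43.6%). Elk3 had a log2 ratio of 0.35 (0.30 to 0.41) and Etv6 one of -0.61 (-0.75 to -0.49), while all genes had a median of -0.10. Sox7 stood at -0.05 (-0.08 to -0.01), Sox17 at -0.08 (-0.12 to -0.04) and Sox18 at 0.05 (0.01 to 0.09). Ets2 stood at -0.18 (-0.24 to -0.12), Erg at -0.16 (-0.28 to -0.05), Ets1 at -0.13 (-0.15 to -0.11) and Fli1 at -0.06 (-0.10 to -0.02). The ratios of Sox7, Sox17 and Fli1 were above 0 with TMM factors and with DESeq2 size factors, which shifted the median of all genes by 0.11 and 0.12 on the log2 scale. That of Sox18 stayed above 0 with both (0.16 and 0.17) and was below 0 when scaled to the endothelial markers (-0.07).

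Markers of other cells also differed between the stages. Macrophage and microglia markers summed to 74.2 CPM at E18 and 328 CPM at E15 in the knockout, and to 36.0 CPM at E18 and 693 CPM at E15 in WT. Mural markers summed to 11720 CPM at E18 and 4936 CPM at E15 in the knockout, and to 9396 CPM at E18 and 7387 CPM at E15 in WT. The dissociation stress genes summed to 15160 CPM at E18 and 11550 CPM at E15 in the knockout. In WT they summed to 24070 CPM at E18 and 12650 CPM at E15. In an edgeR fit over all 4 libraries, 4 of the 10 rose with stage at an adjusted p of 0.05. They were Fos, Junb, Egr1 and Zfp36, where 1.34% of all genes were called. The calls of Fos and Junb were lost with library totals (edgeR adjusted p 0.0540 and 0.0555) and with no filter (0.0535 and 0.0529). Erythroid markers summed to 724 CPM at E18 and 513 CPM at E15 in the knockout, and to 919 CPM at E18 and 404 CPM at E15 in WT. Fli1, Ets1, Ets2, Elk3 and Etv6 are expressed in blood cells as well as in endothelium. The part of such cells, of the stress genes or of sex in the ratios was not tested.

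Between the stages the knockout-over-WT ratio of all 9 genes differed beyond counting error, as did that of 63.8% of all genes. The E18 ratio minus the E15 ratio, computed without the added 1 CPM, was -0.33 for Sox17 (95% counting interval -0.38 to -0.28), -0.32 for Erg (-0.48 to -0.16), -0.30 for Sox7 (-0.34 to -0.25), -0.28 for Etv6 (-0.46 to -0.11) and -0.27 for Ets2 (-0.36 to -0.17). It was 0.29 for Elk3 (0.22 to 0.37), 0.18 for Sox18 (0.12 to 0.24) and 0.10 for Fli1 (0.05 to 0.16), and -0.07 for Ets1 (-0.10 to -0.04). The median absolute difference was 0.28 over the 9 genes and 0.34 over 11784 genes in both comparisons. Sox17 and Elk3 had intervals on opposite sides of 0 at the stages, 2 of 9 genes against 18.5% of all genes. Etv6 alone had intervals on the same side at both, 1 of 9 against 21.6%.

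**Figure D4:**
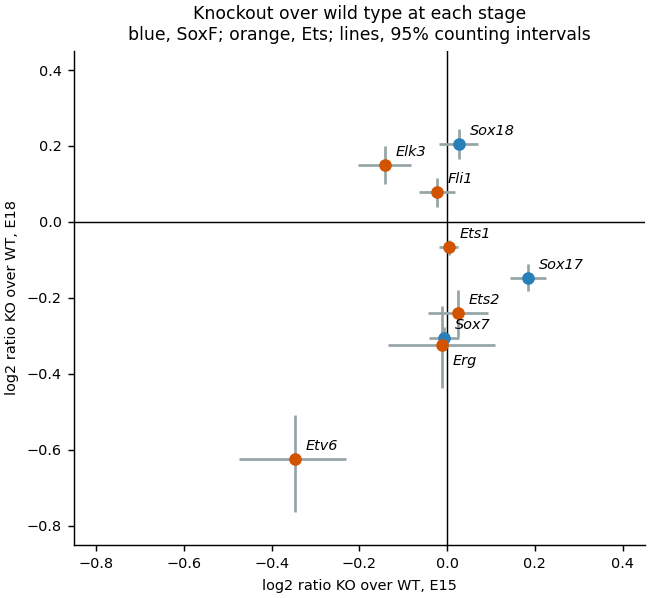
Log2 ratio of knockout over WT at E15 (horizontal axis) and at E18 (vertical axis) for each of the 9 genes, blue for SoxF and orange for Ets, with 95% counting intervals as grey lines. Etv6 sits alone at the lower left (-0.35 at E15, -0.62 at E18), Sox17 lies at the lower right and Elk3 at the upper left, and the other 6 lie close to 0 on the E15 axis.

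The design allows a test only when the stages stand in for replicates. In an edgeR quasi-likelihood fit over all 4 libraries, with stage and genotype as additive terms, TMM scaling and 1 residual degree of freedom, no member passed an adjusted p of 0.05 for genotype, against 0.0224% of 13416 genes. Etv6 had the largest genotype effect of the 9, a log2 fold of -0.49 with an unadjusted p of 0.0318 and an edgeR adjusted p (Benjamini-Hochberg over all genes) of 0.907, lower in the knockout at both stages. It was the only 1 of the 9 genes with an unadjusted p under 0.05, where 687 of 13416 genes had one. Its adjusted p was higher still, up to 1, under the other settings. DESeq2 called 0 of the 9 and gave none an unadjusted p under 0.05, where 604 of 13416 genes had one. The log2 folds of the other 8 genes lay between -0.17 for Erg and 0.12 for Sox18, with adjusted p in edgeR of 0.993 or higher.

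For stage, the same edgeR fit called 0 of the 9 genes, against 1.34% of all genes. It gave 0 of the 9 an unadjusted p under 0.05, where 2241 of 13416 genes had one. Elk3 came nearest, with a log2 fold of 0.32 for E18 over E15, an unadjusted p of 0.0514 and an edgeR adjusted p of 0.304 (0.304 to 0.518 over the settings tried). Etv6 had a log2 fold of -0.36 with an edgeR adjusted p of 0.396 (0.255 to 0.579). With library totals in place of TMM it was Etv6 that came nearest, with an unadjusted p of 0.0363 and an edgeR adjusted p of 0.255. With that setting 1 of the 9 genes had an unadjusted p under 0.05, where 2264 of 13416 genes had one. Sox7 had a log2 fold of 0.22 with an edgeR adjusted p of 0.443 (0.434 to 0.737). DESeq2 also called 0 of the 9 for stage and gave 0 an unadjusted p under 0.05, where 1986 genes had one. The fit assumes that genotype acts alike at both stages, while the ratios of Sox17 and Elk3 pointed opposite ways at the stages in these libraries.

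Genes with a course over the 4 libraries most like that of a member were sought for Etv6 and Elk3, the members with the widest log2 ranges, 0.96 and 0.35. Likeness was the Euclidean distance of centred log2(CPM + 1) over the 4 libraries, among 8555 genes averaging 10 CPM or more. Nearest to Etv6 were Cmas, which activates sialic acid (distance 0.0276), Trps1, a GATA-type repressor (0.0512), and Timeless, a replication fork protein (0.0553). Timeless, for example, had 109 CPM in the knockout and 141 CPM in WT at E15, and 74.1 CPM in the knockout and 109 CPM in WT at E18. Nearest to Elk3 were Rftn2 (0.0133), the chromatin remodelling subunit Vps72 (0.0158) and Aars, the alanyl-tRNA synthetase (0.0203). Among the 9 genes themselves the closest pair was Erg and Ets2 at 0.0783, and the member nearest to Etv6 was Erg at 0.564. As this distance depends on the width of a gene's range, a large value for Etv6 follows from its wide range.

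Erg and Ets2 lie next to each other on chromosome 16 on opposite strands, 115481 bases apart with 0 annotated genes between them, and Fli1 and Ets1 lie 93359 bases apart on chromosome 9, on opposite strands, with 0 protein-coding genes between them. Erg (chr16:95359169-95586593, minus strand, GRCm38) and Ets2 (chr16:95702075-95721051, plus strand) were both lower in the knockout at E18 and both close to level at E15. Fli1 (chr9:32422204-32542861, minus strand) and Ets1 (chr9:32636221-32757820, plus strand) had a distance of 0.105 and differed in sign at E18.

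The sources used here do not say if counting was stranded, and reads of overlapping antisense genes cannot be told apart from those of a member. Elk3 (chr10:93247414-93311135, minus strand) shares 316 exonic bases with Cdk17 on the opposite strand, which was counted at 1012 reads in the knockout and 947 in WT at E15, and at 1161 in the knockout and 1072 in WT at E18. Etv6 (chr6:134035700-134270158, plus strand) shares 135 exonic bases with the antisense Gm17089, which had 26 reads in the knockout and 35 in WT at E15, and 11 in the knockout and 27 in WT at E18, against 873 to 1211 reads of Etv6 itself. Sox17 (chr1:4490931-4497354, minus strand) shares 804 exonic bases with Gm37587, read between 5 and 41 times. Sox7 (chr14:63943674-63950732, plus strand) and Sox18 (chr2:181669836-181671640, minus strand) overlap no other annotated gene.

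Between genotypes, genes that Ets and SoxF factors are known to act on mostly stayed within 2-fold, as did genes at large. Past 2-fold in either direction were 6.87% of all genes at E15 and 6.80% at E18. The lists were put together from general knowledge, with earlier results of these data known, and overlap each other and the endothelial markers. Of 20 Ets targets, 1 was past 2-fold higher (Flt1, a VEGF receptor gene, with 2939 CPM in the knockout and 1328 CPM in WT) and 0 lower in the knockout at E15, where 3.55% and 3.32% of all genes were, and 0 were past 2-fold at E18. Their median log2 ratio was -0.08 at E15 and -0.05 at E18. Of 16 SoxF targets, 1 was higher at E15, the adhesion molecule Vcam1 with 107 reads in the knockout and 42 in WT. At E18, 1 was higher, the lymphatic regulator Prox1 with 53 reads in the knockout and 10 in WT, and 1 was lower, where 2.88% and 3.92% of all genes were. The lower gene was Gja5, the arterial gap junction gene, with 6.50 CPM in the knockout and 16.9 CPM in WT, a log2 ratio of -1.25, and with 13.0 CPM in the knockout and 12.8 CPM in WT at E15. The SoxF targets had a median log2 ratio of 0.03 at E15 and -0.20 at E18. In the edgeR fit 0 of either list passed an adjusted p of 0.05 for genotype, against 0.0224% of all genes.

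With stage, 2 of the 20 Ets targets rose and 0 fell at an edgeR adjusted p of 0.05, where 1.34% of all genes were called. Vwf, the von Willebrand factor gene, had 769 CPM at E18 and 407 CPM at E15 in the knockout, and 943 CPM at E18 and 436 CPM at E15 in WT, a log2 fold of 1.13 with an edgeR adjusted p of 0.0158. Cdh5, the endothelial cadherin and also 1 of the 16 SoxF targets, had 387 CPM at E18 and 192 CPM at E15 in the knockout, and 312 CPM at E18 and 194 CPM at E15 in WT. Its log2 fold was 0.97 with an edgeR adjusted p of 0.0327, and the call was lost when library totals replaced TMM (0.0606) or with no filter on low counts (0.0529). Vwf kept an adjusted p of 0.0335 or lower under every setting tried. In the library ratios the chemokine receptor gene Cxcr4, a SoxF target, was also past 2-fold higher with stage in the knockout, with 838 reads at E18 and 216 at E15 (log2 ratio 1.46), and had a ratio of 0.88 in WT. The Ets target Flt1 was past 2-fold lower with stage in the knockout, with 1317 CPM at E18 and 2939 CPM at E15. So 1 of 20 Ets targets was higher and 1 lower in the knockout, and 2 of 16 SoxF targets were higher, where 4.34% of all genes were higher and 10.9% lower.

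Among 11 other Ets genes tested between genotypes, 0 were past 2-fold at either stage, against 6.87% of all genes at E15 and 6.80% at E18. With stage, 2 of 12 were past 2-fold in the knockout (15.3% of all genes) and 2 of 12 in WT (10.7%). Spi1, the Ets factor of macrophages, was lower at E18, with 30 reads at E18 and 104 at E15 in the knockout, and 3 at E18 and 55 at E15 in WT, as were the macrophage markers given above. Etv4 was higher at E18 in WT, with 100 reads at E18 and 18 at E15, and Elf4 was lower at E18 in the knockout, with 141 reads at E18 and 331 at E15. Sox11 fell with stage at an edgeR adjusted p of 0.0456, with 70.8 CPM at E18 and 133 CPM at E15 in the knockout, and 72.1 CPM at E18 and 180.2 CPM at E15 in WT. That call was lost with library totals (0.0507), with DESeq2 size factors (0.0522) and with no filter (0.0689). Of the other Sox genes, 0 of 6 were past 2-fold between genotypes at E15, where 6.87% of all genes were. At E18 it was 1 of 7, where 6.80% of all genes were. With stage it was 1 of 7 in the knockout (15.3% of all genes) and 1 of 6, Sox11, in WT (10.7%). Sox8 was past 2-fold lower in the knockout at E18, with 11 reads in the knockout and 40 in WT, and Sox4 was lower with stage in the knockout, with 50 reads at E18 and 112 at E15.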

How the data were processed

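RNA of brain endothelial cells was sequenced in 4 libraries, 1 per group, and 2 tables were deposited, 1 per stage. Per the submitters' processing notes, the tools were Bowtie2 2.2.3, TopHat2 2.0.12 and HTSeq 0.6.0 and the build was mm9, but 90.1% of the gene identifiers found in GENCODE M21 have the same start and end there, so positions are given as GRCm38 (the deposited start of Sox7 differs by 1 base). Per the file headers, the tables hold read counts per Ensembl gene, CPM values made by the authors, a fold ratio of knockout over WT, its log2 and p-values. The authors' test, and how the counting treated strand and genes that share sequence, are not given in the sources used here.

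From the deposited counts, CPM on library totals were computed, and log2 ratios with a pseudocount of 1 CPM over genes that reached 1 CPM in either library and 50 reads in the pair. Intervals are exact Clopper-Pearson intervals at 95% and, like a floor of 3 reads, cover counting error only. Past 2-fold on this scale counts as called, with no p-value. The ratios of all genes stand in for a test of a list. The comparisons share libraries: each library enters 2 of the 4. The additive fit used edgeR 4.0.16 in R 4.3.3 (glmQLFit, glmQLFTest, TMM, Benjamini-Hochberg) over genes that reached 1 CPM in 2 or more libraries, DESeq2 1.42.0 being the alternative. The test code was checked on simulated data. CPM per kb used summed exon length from GENCODE M21. Other tools were Python 3.11.15, pandas 2.3.3 and scipy 1.17.1.

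The 9 genes and all lists were chosen with earlier results of these data known. All 9 genes are named, as are the genes of other lists past 2-fold (at most 4 per list and comparison), the highest other Sox and Ets genes per kb, and the 3 nearest genes of the members with the widest range. Genes past an adjusted p of 0.05 in a target or family list are named after their values were seen. Replicates were not at hand, although the series' text speaks of triplicates, so spread between embryos is unknown. Alternatives were other scalings, pseudocounts, filters and tools, and leaving out each library; scaling to the endothelial markers was chosen after seeing the data.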

Additional observations from a re-analysis of the deposited data

Results flagged for a closer look

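The knockout-over-WT ratio pointed opposite ways at the stages for Sox17 and Elk3, with counting intervals that excluded 0 at both. Sox17 was higher in the knockout at E15 (log2 ratio 0.18) and lower at E18 (-0.15), so the E18 ratio minus the E15 ratio was -0.33. Elk3 was lower in the knockout at E15 (-0.14) and higher at E18 (0.15), a difference of 0.29. With 1 library per group the difference between the stages was not tested, nor was the part of sex in it. Of all genes in both comparisons, 18.5% had such opposite intervals, close to the 2 of 9 here.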

How the results depend on the processing

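None of the 9 genes was past 2-fold in any of the 4 comparisons under any setting tried. Their single ratios moved beyond the counting interval in 55 cases and not in 197, all under another scaling: 16 of 36 with TMM factors, 16 of 36 with DESeq2 size factors and 23 of 36 when scaled to the endothelial markers. Other scalings shifted the median of all genes by 0.11 (TMM, both stage comparisons) and by 0.11 in WT and 0.12 in the knockout (DESeq2 size factors). The members' median for E18 over E15 then stood at 0.0326 (TMM) or 0.0432 (DESeq2) in the knockout and at 0.18 or 0.17 in WT. Scaled to the endothelial markers it was -0.20 in the knockout and -0.0245 in WT, and for knockout over WT it was 0.0481 at E15 and -0.11 at E18. The share of higher calls was 28.9% in WT with library totals, 39.7% with TMM and 38.9% with DESeq2 size factors, and 28.4%, 36.5% and 37.1% in the knockout.

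The count of all genes past 2-fold depended on the pseudocount and filter. With 5 CPM added it was 238 (E15) and 124 (E18) for knockout over WT, 779 for stage in the knockout and 429 in WT, against 868, 840, 1904 and 1335 with 1 CPM. With 0.1 CPM added it was 1292 at E18. With no filter it was 1416 at E15 and 1443 at E18, and with a filter of 5 CPM it was 486 at E18. In the additive fit the 3 genotype calls were 0 with library totals, 0 with no filter and 44 in DESeq2, and the 180 stage calls were 102, 92 and 716. The cause was not tested. The members' calls and directions in edgeR stayed as they were for genotype, and the stage folds of Sox18, Erg, Fli1, Ets1 and Ets2 were below 0 with library totals. Without 1 library at a time, which leaves no residual degree of freedom, the members' median lay between -0.15 and 0.00 for genotype and between 0.03 and 0.18 for stage. No paired analysis was possible with 1 library per group. The labels do not give the meaning of the numbers in the sample titles. The additive fit sets the genotypes against each other within stage.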

Other observations

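In a list of other transcription factors of endothelium, more genes were past 2-fold at E15 than among the SoxF and Ets genes. The list was chosen with earlier results of these data known, so its share past 2-fold is a description and not a test. Of 21 tested, 4 were past 2-fold higher in the knockout and 0 lower, against 3.55% and 3.32% of all genes. Lmo2, a LIM protein that joins blood and endothelial factors, had 190.4 CPM in the knockout and 69.0 CPM in WT. Foxq1, a forkhead factor, had 93.9 CPM in the knockout and 34.7 CPM in WT. Hhex, a homeobox factor, had 33.4 CPM in the knockout and 14.1 CPM in WT, and Tal1, a partner of Lmo2 in early blood and endothelium, had 17.6 CPM in the knockout and 6.56 CPM in WT. At E18 none of these 4 was past 2-fold, and 1 of 21 was (Prox1, higher), against 6.80% of all genes in either direction. With stage, the same 4 genes were past 2-fold lower in the knockout, with log2 ratios between -2.35 for Foxq1 and -1.28 for Hhex, where 10.9% of all genes were lower, and 0 of 20 tested were past 2-fold in WT, where 7.58% of all genes were lower. Both differences rest on the same E15 knockout library. Erythroid markers summed to 513 CPM in the knockout and 404 CPM in WT at E15 and megakaryocyte markers to 42.8 CPM in the knockout and 40.7 CPM in WT, while neutrophil and mast cell markers summed to 17.4 CPM in the knockout and 1.48 CPM in WT (Cpa3 had 114 reads in the knockout and 11 in WT, and Ngp had 83 reads in the knockout and 1 in WT) and macrophage and microglia markers to 328 CPM in the knockout and 693 CPM in WT. Of 7 erythroid markers tested at E15, 2 had an interval above 0 and 2 below it. The part of any of these cell types in the ratios was not tested. In the edgeR fit 0 of the 21 passed an adjusted p of 0.05 for genotype, against 0.0224% of all genes.

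With stage, Epas1, the hypoxia-inducible factor of endothelium, rose (edgeR log2 fold 1.02, adjusted p 0.0158), with 1581 CPM at E18 and 902 CPM at E15 in the knockout and 1768 CPM at E18 and 890.5 CPM at E15 in WT. Foxf2, a forkhead gene of brain vessels and pericytes, fell (log2 fold -0.83, edgeR adjusted p 0.0468), with 105.5 CPM at E18 and 199 CPM at E15 in the knockout and 101 CPM at E18 and 199 CPM at E15 in WT. The Foxf2 call was lost with DESeq2 size factors (0.0522) and with no filter (0.0689).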
